A study of Sus scrofa with 8 samples.

Results

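Genes of the switch between epithelial and mesenchymal cells were examined in pig embryonic fibroblasts (PEFs), as 10 of the 28077 genes of the RefSeq annotation of the pig assembly Sscrofa11.1, of which 19487 are protein-coding. The genes were chosen by name. They were 5 epithelial genes (CDH1, EPCAM, ESRP1, ESRP2 and GRHL2) and 5 mesenchymal genes (CDH2, ZEB1, ZEB2, SNAI1 and SNAI2), and each had 1 gene model on the assembly. PEFs, a primary mixed culture of connective tissue cells, were derived from 35-day fetuses of Large White pigs and were left untreated. ChIP-seq, which recovers chromatin fragments with an antibody against a protein or histone mark and sequences them, was performed for the histone marks H3K4me3 and H3K27ac and for the architectural protein CTCF, with 2 replicates each (6 libraries). No label says that the replicates came from separate cultures, so their spread may be technical. All 6 libraries come from the same kind of cell, so the comparison made here is between genes and not between treatments.

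Epithelial cells are held together in sheets by E-cadherin, whereas mesenchymal cells such as fibroblasts migrate singly and use N-cadherin. In the epithelial to mesenchymal transition, transcription factors of the SNAI and ZEB families bind E-boxes in the promoters of epithelial genes and repress them, while GRHL2, OVOL factors and microRNAs of the miR-200 family oppose ZEB. H3K4me3 marks the starts of genes that are active or poised, H3K27ac marks active promoters and enhancers, and CTCF binds a long motif at insulators, loop anchors and some promoters.

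On Sscrofa11.1 the epithelial genes all lie on the minus strand, CDH1 at chr6:18075487-18155986, EPCAM at chr3:93169800-93185221, ESRP1 at chr4:41993944-42061706, ESRP2 at chr6:28804425-28814478 and GRHL2 at chr4:35368788-35565394. CDH2 lies at chr6:112396713-112629073 on the minus strand. The other mesenchymal genes lie on the plus strand, ZEB1 at chr10:42013114-42216139, ZEB2 at chr15:7498879-7631347, SNAI1 at chr17:51546446-51552498 and SNAI2 at chr4:79264880-79268475.

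The promoters below show the E-boxes that the transition is known for. A window ran from 250 bases before to 50 bases after the start of the gene model, and was read from the RefSeq sequence of Sscrofa11.1 on the strand of the gene. Capitals mark each E-box of the SNAI and ZEB type, CACCTG or CAGGTG on its reverse strand. CDH1 is shown as the classical target, GRHL2 as the gene with the weakest H3K4me3 peak of the 10, and ZEB1 and SNAI1 as genes that encode the E-box binders. The GRHL2 peak began 0.352 and 0.393 kb downstream of the start in replicates 1 and 2, outside the printed window.
CDH1 promoter, chr6:18155937-18156236, minus strand: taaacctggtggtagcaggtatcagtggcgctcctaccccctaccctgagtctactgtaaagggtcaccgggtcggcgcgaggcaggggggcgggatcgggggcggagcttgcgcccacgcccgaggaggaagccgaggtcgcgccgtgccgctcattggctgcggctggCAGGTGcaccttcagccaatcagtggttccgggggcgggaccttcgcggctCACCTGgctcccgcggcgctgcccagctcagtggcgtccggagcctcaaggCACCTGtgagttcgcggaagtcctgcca
GRHL2 promoter, chr4:35565345-35565644, minus strand: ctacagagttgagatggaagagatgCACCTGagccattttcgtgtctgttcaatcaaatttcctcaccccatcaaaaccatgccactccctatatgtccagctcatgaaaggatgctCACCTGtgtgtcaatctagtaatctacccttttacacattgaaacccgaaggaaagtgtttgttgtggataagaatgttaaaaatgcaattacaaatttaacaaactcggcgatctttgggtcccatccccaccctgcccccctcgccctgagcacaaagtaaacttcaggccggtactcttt
ZEB1 promoter, chr10:42012864-42013163, plus strand: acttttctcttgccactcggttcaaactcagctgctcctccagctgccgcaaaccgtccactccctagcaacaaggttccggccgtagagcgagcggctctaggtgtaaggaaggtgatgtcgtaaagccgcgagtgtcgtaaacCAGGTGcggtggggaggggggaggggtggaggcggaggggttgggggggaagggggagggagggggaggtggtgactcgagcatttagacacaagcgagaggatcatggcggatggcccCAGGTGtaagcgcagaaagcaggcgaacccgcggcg
SNAI1 promoter, chr17:51546196-51546495, plus strand: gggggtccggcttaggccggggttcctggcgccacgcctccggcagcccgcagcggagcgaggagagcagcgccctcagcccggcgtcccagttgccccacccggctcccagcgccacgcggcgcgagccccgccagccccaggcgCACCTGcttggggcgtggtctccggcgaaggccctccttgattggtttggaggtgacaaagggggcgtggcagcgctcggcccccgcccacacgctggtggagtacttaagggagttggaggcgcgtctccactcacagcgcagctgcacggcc

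The CDH1 window held 3 E-boxes, whose first bases lay at positions -80, -29 and 22 from the gene start, which is position 0. GRHL2 held 2, at -225 and -133, and ESRP1 held 1, at -12. Among the mesenchymal genes ZEB1 held 2, at -105 and 14, whereas CDH2, SNAI1 and SNAI2 held 1 each, at -226, -104 and 34. The windows of EPCAM, ESRP2 and ZEB2 held none. An E-box was therefore present in 3 of 5 epithelial and 4 of 5 mesenchymal windows, against 22.4% of the 19486 protein-coding windows. The letters are a description of the window and do not show that a factor was bound there. Base composition also differed widely among the 10 windows. GC content was highest in EPCAM (77.7%, the 93.3 percentile of protein-coding windows) and lowest in GRHL2 (44.7%, the 16.4 percentile). GRHL2 also had the lowest ratio of observed to expected CpG (0.419, against a median of 0.651 over protein-coding windows), and EPCAM the highest (0.983).

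All 10 genes carried H3K4me3 at their start in both replicates, but H3K27ac was present at all 5 mesenchymal genes and at ESRP2 alone among the epithelial genes. A peak was counted at a start when any base of it lay within 1 kb of the 5′ end of the gene model and this held in both replicates. H3K4me3 was called so at 68.9% of the 19487 protein-coding genes, H3K27ac at 60.7%, and CTCF at 17.9%. The state of H3K4me3 in both replicates with H3K27ac in neither was found at CDH1, EPCAM, ESRP1 and GRHL2, which makes 4 of 5 epithelial and 0 of 5 mesenchymal genes, against 8.25% of protein-coding genes. Among the 13423 protein-coding genes with H3K4me3, 85.5% also had H3K27ac, compared with 1 of the 5 epithelial and 5 of the 5 mesenchymal genes. The H3K27ac contrast depends on counting any overlap with the window. With the peak summit required within 1 kb of the start, 1 gene of each group had H3K27ac (51.2% of protein-coding genes), and 4 epithelial and 2 mesenchymal genes had H3K4me3 (52.2%). CTCF lay at the starts of ZEB1, ZEB2 and SNAI1 in both replicates and at no epithelial start in both. These 3 genes had all 3 signals, a state of 14.4% of protein-coding genes. In a bulk culture, a mark in few of the cells and a weak mark in all of them cannot be told apart. Gene expression was not analysed here.

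**Figure D1:**
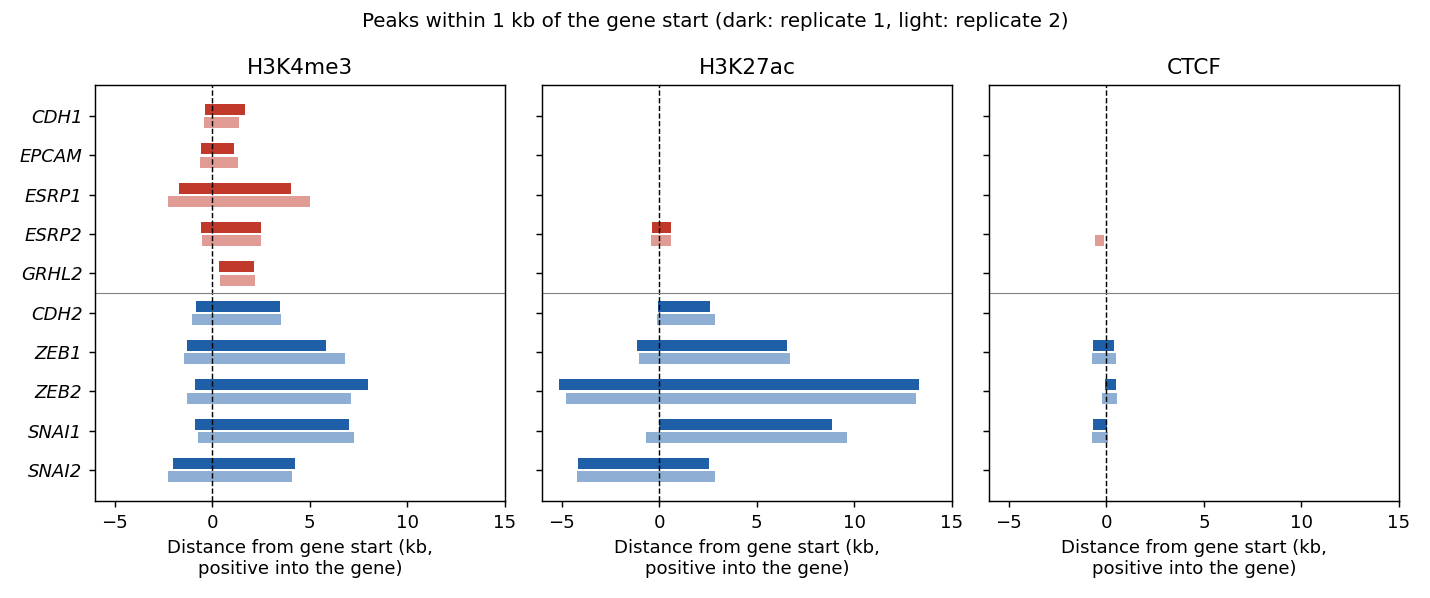
Extent of each peak within 1 kb of the gene start for H3K4me3, H3K27ac and CTCF, by distance from the start in kb (horizontal axis) for the 5 epithelial genes (red) and the 5 mesenchymal genes (blue), replicate 1 dark and replicate 2 light. H3K4me3 bars are present in all 10 genes, H3K27ac bars in ESRP2 and the 5 mesenchymal genes, and the ZEB2 H3K27ac bar is the widest at 18.4 and 17.9 kb.

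The cadherins gave the contrast in its simplest form. CDH1 encodes E-cadherin, the main adhesion protein of epithelia. Its H3K4me3 peak had a fold enrichment over the control of 16.9 in replicate 1 and 8.62 in replicate 2, and no H3K27ac or CTCF peak lay within 1 kb of its start. The nearest H3K27ac peak was 20.8 and 21.3 kb away. CDH2 encodes N-cadherin, which replaces E-cadherin in mesenchymal cells. Its H3K4me3 fold enrichment was 53.1 and 27, and its start carried H3K27ac with a fold enrichment of 7.76 and 7.58. CDH2 was thus higher than CDH1 for H3K4me3 in each replicate, but its H3K27ac was the lowest of the mesenchymal genes, at the 15.2 and 13.3 percentiles of protein-coding genes with such a peak. A noncoding gene (LOC110261188) starts 628 bp from CDH2 on the opposite strand, and the peaks at CDH2 cannot be assigned to one of them.

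EPCAM, an adhesion molecule of the epithelial surface, had the highest H3K4me3 fold enrichment of the epithelial genes, with 42.7 in replicate 1 and 20.6 in replicate 2. It had no H3K27ac peak at its start, and the nearest one was 8.46 and 8.70 kb away. ESRP1 and ESRP2 are splicing factors that maintain the epithelial isoforms of many transcripts. The ESRP1 start had an H3K4me3 fold enrichment of 34.8 and 16.5, and that of ESRP2 was 31.1 and 16.1. The paralogs were close in H3K4me3 but not in H3K27ac. ESRP2 carried a narrow H3K27ac peak of 0.967 and 1.03 kb with a fold enrichment of 5.25 and 7.14, at the 8.05 and 12.3 percentiles, whereas no peak lay within 1 kb of ESRP1. The nearest H3K27ac peaks of ESRP1 were 3.12 and 2.17 kb away, within the gene, with a fold enrichment of at most 3.49 in the gene body. Of these weak H3K27ac peaks, 1 in replicate 1 and 2 in replicate 2 lay within the broad H3K4me3 peak of the ESRP1 start, so that ESRP1 lacked H3K27ac within 1 kb but not over its whole H3K4me3 domain, unlike CDH1, EPCAM and GRHL2. ESRP2 also had a weak CTCF peak in replicate 2 only, of fold enrichment 3.00.

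GRHL2 is a grainyhead transcription factor that activates CDH1 and other epithelial genes and opposes ZEB1. It had the lowest H3K4me3 fold enrichment of the 10 genes, with 5.84 in replicate 1 and 4.74 in replicate 2, at the 2.40 and 2.71 percentiles of protein-coding genes with a peak. Unlike the other 9 peaks, its peak did not cover the start of the gene model and began 0.352 and 0.393 kb downstream of it. The gene has 4 annotated transcript starts spread over 6800 bp, and a noncoding gene (LOC110260426) starts 637 bp away on the opposite strand, inside GRHL2. In both replicates the H3K4me3 peak covered that noncoding start but not the start of the GRHL2 model. The peak and its low rank therefore cannot be assigned to one of the 2 genes. No H3K27ac peak was found in GRHL2 or its flanks, and the nearest one was 133 kb from the start in both replicates.

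The 4 genes that encode E-box repressors had both histone marks at their starts. Among protein-coding genes with a peak, their fold enrichment lay between the 46.9 and 84.6 percentiles for H3K4me3. For H3K27ac it lay between the 60.3 and 92.5 percentiles. ZEB1 had an H3K4me3 fold enrichment of 56.1 and 31.9, and ZEB2 of 50.5 and 31.1. These are zinc finger homeobox factors that bind paired E-boxes. SNAI1 (Snail) had 62.8 and 31.9, and SNAI2 (Slug) had 60.9 and 34.6, the highest H3K4me3 values of the 10 genes in replicates 1 and 2, respectively. For H3K27ac, ZEB2 came first with 31.7 and 36.5, followed by ZEB1 with 24.3 and 30.2. The H3K27ac fold enrichment of SNAI1 was 21.7 and 22.2, and that of SNAI2 was 20.3 and 27.7. SNAI1 and SNAI2 changed places between the replicates, so their order was not resolved. Each fold enrichment belongs to the whole peak. The H3K27ac summits at SNAI1 lay 6686 and 6588 bp downstream of the start, past the end of this gene of 6.05 kb. The ZEB2 summit in replicate 2 lay 4378 bp downstream. For these peaks the value is not that of the start itself. The ZEB1 peaks lie in a shared promoter region, since ZNF438 starts 1277 bp away on the opposite strand. A noncoding gene (LOC110255584) also starts 1366 bp from ZEB1, downstream on the same strand. The H3K4me3 summits lay 1346 and 1491 bp downstream of the ZEB1 start, and the H3K27ac summits 1527 and 1236 bp. The peaks credited to ZEB1 cannot be assigned to one of these starts.

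For H3K4me3 the groups did not overlap in either replicate. The epithelial genes ranged from 5.84 to 42.7 in replicate 1 and from 4.74 to 20.6 in replicate 2, and the mesenchymal genes from 50.5 to 62.8 and from 27 to 34.6. The mesenchymal values were ordinary for a marked promoter: the medians of all protein-coding genes with a peak were 52.0 and 25.2, and 66.8% and 68.1% of those genes lay above every epithelial gene in replicates 1 and 2. It is the epithelial genes that lay low. Fold enrichment was higher in replicate 1 than in replicate 2 for each of the 10 genes, so the groups were compared within each replicate. H3K27ac fold enrichment of ESRP2 lay below that of every mesenchymal gene in both replicates, although it was close to CDH2 in replicate 2 (7.14 and 7.58).

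**Figure D2:**
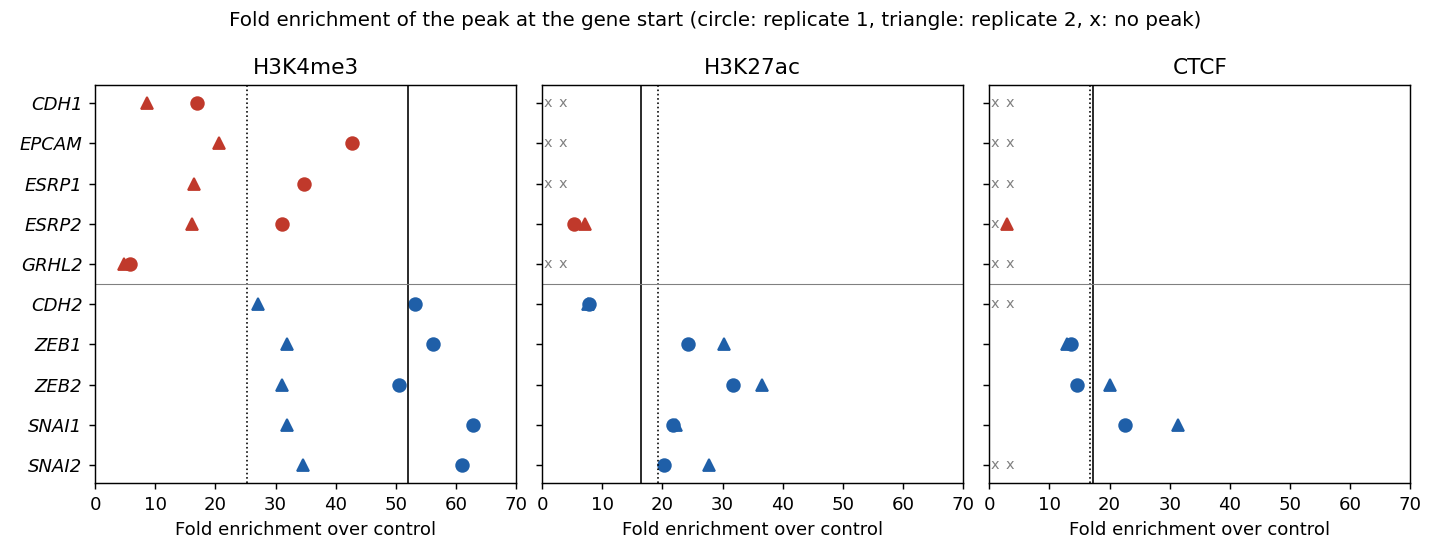
Fold enrichment over the control (horizontal axis, no unit) of the peak at the start of each epithelial (red) and mesenchymal (blue) gene in replicate 1 (circle) and replicate 2 (triangle), with a grey x for a replicate without a peak and vertical lines for the medians of protein-coding genes with a peak (solid for replicate 1, dotted for replicate 2). For H3K4me3 the epithelial genes lie below the mesenchymal genes within each replicate, from 5.84 to 42.7 against 50.5 to 62.8 in replicate 1. Each value is that of the whole peak, whose summit can lie more than 1 kb from the start.

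H3K4me3 fold enrichment was set against whether H3K27ac was present, with the mean of both replicates for each gene. Its median was 41.6 over the 11476 protein-coding genes with both marks in both replicates and 16.1 over the 1608 with H3K4me3 in both and H3K27ac in neither. Within the latter set, GRHL2 (mean 5.29) lay at the 7.71 percentile and CDH1 (12.8) at the 36.8 percentile. ESRP1 (25.7) and EPCAM (31.6) lay high in the same set, at the 80.5 and 91.4 percentiles. The 4 epithelial promoters without H3K27ac were thus spread from low to high values of such promoters. In the set with both marks, ESRP2 (23.6) lay at the 8.58 percentile, whereas the mesenchymal genes lay between the 44.2 percentile (CDH2, 40.0) and the 72.3 percentile (SNAI2, 47.7).

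**Figure D3:**
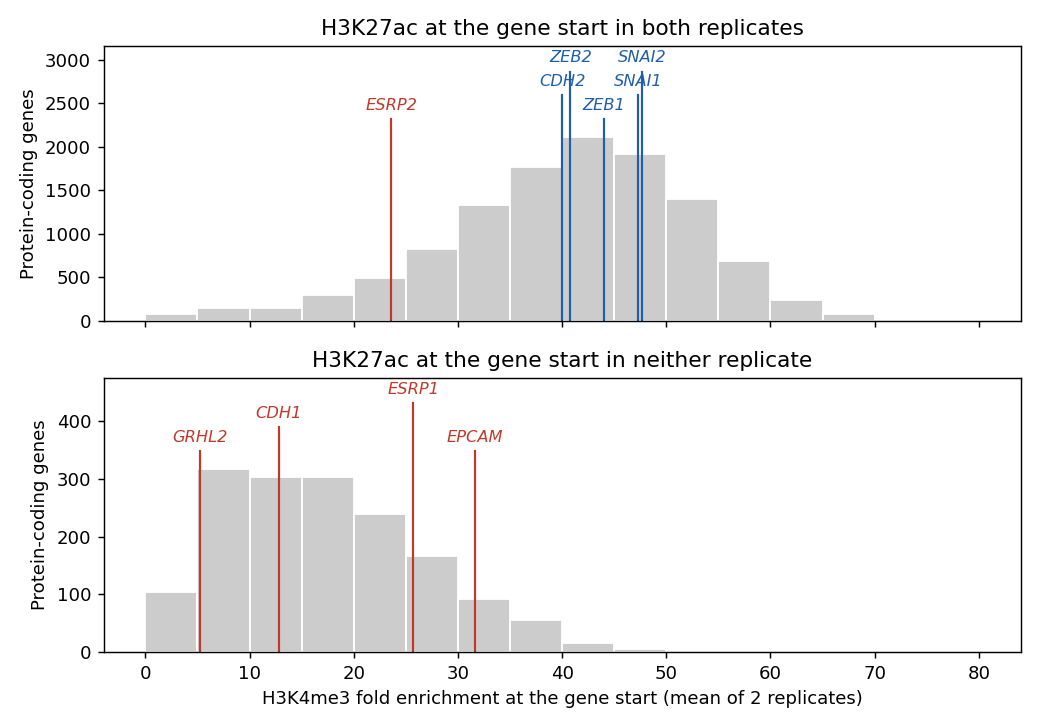
Numbers of protein-coding genes (vertical axis) by the mean H3K4me3 fold enrichment of both replicates at the gene start (horizontal axis, bins of 5), for 11476 genes with H3K27ac in both replicates (top) and 1608 with H3K27ac in neither (bottom), with lines at the epithelial (red) and mesenchymal (blue) genes. The 5 mesenchymal genes stand in the middle of the upper distribution, from 40.0 to 47.7, and GRHL2, CDH1, ESRP1 and EPCAM are spread over the lower one.

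The width of the H3K4me3 peak separated the groups less fully than its height. It was 2.03 and 1.78 kb at CDH1, 1.70 and 1.95 kb at EPCAM, 3.08 and 3.01 kb at ESRP2, and 1.82 and 1.78 kb at GRHL2. CDH2 was wider than these, at 4.31 and 4.52 kb. The other mesenchymal genes had broad domains, of 7.16 and 8.27 kb at ZEB1, 8.84 and 8.41 kb at ZEB2, 7.90 and 8.01 kb at SNAI1, and 6.26 and 6.37 kb at SNAI2, all at or above the 93.3 percentile of protein-coding genes with a peak. ESRP1 was the exception among the epithelial genes, since its domain of 5.77 and 7.28 kb exceeded that of CDH2 in both replicates and that of SNAI2 in replicate 2. ESRP1 has 9 annotated transcript starts within 1055 bp. The median widths over protein-coding genes were 2.74 and 2.90 kb. At SNAI1 and SNAI2, genes of 6.05 and 3.60 kb, the H3K4me3 peak was longer than the gene.

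H3K27ac domains at the mesenchymal starts ranged from CDH2, of 2.64 and 2.95 kb, to ZEB2, of 18.4 and 17.9 kb. The ZEB2 domain reached from 5.14 kb upstream to 13.3 kb into the gene in replicate 1 and lay at the 99.3 percentile of width in both replicates. ZEB1 had 7.68 and 7.71 kb, SNAI1 8.83 and 10.3 kb, and SNAI2 6.69 and 7.04 kb. At SNAI2 the H3K27ac domain extended 4.14 and 4.20 kb upstream, further than the 2.02 and 2.28 kb of its H3K4me3. At SNAI1 it extended 8.84 and 9.61 kb downstream, past the end of the gene.

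Beyond the starts, ZEB2 stood out for H3K27ac within the gene body, and the other genes lay closer together. The 5 mesenchymal genes together held 48 H3K27ac peaks in replicate 1 and 44 in replicate 2 over 578 kb, or 8.31 and 7.62 peaks per 100 kb. The 5 epithelial genes together held 4 and 4 over 370 kb, or 1.08 per 100 kb in both. ZEB2 alone held 30 and 26 of these peaks, of which 27 and 25 were in introns, and 23 of the 30 overlapped a peak of the other replicate. Their fold enrichment was at most 7.23 and 7.95. ZEB2 has 5 annotated transcript starts spread over 86354 bp, and only the start of the gene model was set apart. A peak at an internal ZEB2 start was therefore counted as a body peak, and could also count as a distal one. Without ZEB2 the mesenchymal genes still held 4.04 per 100 kb in both replicates. ZEB1 held 10 and 8, of which 6 were found in the other replicate each way, and CDH2 held 8 and 10, all intronic. Of the epithelial genes, CDH1 and ESRP1 held 2 each in both replicates, and EPCAM, ESRP2 and GRHL2 held none. SNAI1 and SNAI2, which are short, held none apart from the peaks at their starts. Among protein-coding genes, 56.8% and 54.3% held no body peak more than 1 kb from every annotated gene start. This share covers genes of every length, and its rule is stricter than that of the counts above, which set apart only the gene's own start. Per length and by the stricter rule, ZEB2 lay at the 98.9 and 96.5 percentiles. ZEB1 (76.4 and 69.6) and CDH2 (70.3 and 70.9) lay close to ESRP1 (68.2 and 65.7) and CDH1 (66.0 and 63.4).

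GRHL2 (197 kb) and ZEB1 (203 kb) have almost the same length, and they differed in H3K27ac. GRHL2 held 0 H3K27ac peaks in its body and in its flanks of 100 kb. ZEB1 held 11 and 13 in its flanks besides those in its body. Of protein-coding genes, 9.80% and 9.19% had no distal H3K27ac peak in the gene or its flanks. This share leaves peaks at gene starts uncounted and covers genes of every length. It is therefore not the share of genes without any H3K27ac peak over a stretch as long as that of GRHL2.

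Distal peaks were counted over each gene and its 100 kb flanks as those more than 1 kb from every annotated gene start, and were given per 100 kb. The H3K27ac density was 12.6 and 11.4 at ZEB2 and 12.1 and 13.6 at SNAI1, at or above the 97.9 percentile of protein-coding genes. ZEB1 had 5.21 in both replicates, CDH2 had 2.78 and 3.70, and SNAI2 had 2.46 in both. The epithelial genes ranged from 0 at GRHL2 and 1.12 at ESRP1, through 2.85 and 3.21 at CDH1, to 5.11 and 6.96 at EPCAM and 6.19 and 7.62 at ESRP2. EPCAM and ESRP2 thus had denser distal H3K27ac than CDH2 and SNAI2 in both replicates, and the groups overlapped. All 13 and 16 distal peaks counted for ESRP2 lay inside other genes, namely NFATC3, PLA2G15, SLC7A6 and PRMT7. Some distal peaks of ZEB1 and SNAI1 also lay inside neighbouring genes. The density thus describes the locus and not the gene alone. The median was 5.21 for the mesenchymal genes in both replicates, 2.85 and 3.21 for the epithelial genes, and 2.72 and 3.14 for protein-coding genes. The difference of the medians was 2.18 ± 0.252 (SD, n = 2 replicates). This SD covers only the replicates, whereas the genes ranged from 0 to 7.62 in the epithelial group and from 2.46 to 13.6 in the mesenchymal group, and the groups are not shown to differ. The difference was also sensitive to how peaks were counted, with 1.28 for peaks of a −log10 q-value of at least 5, 3.41 with 50 kb flanks and 3.74 as a difference of means.

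**Figure D4:**
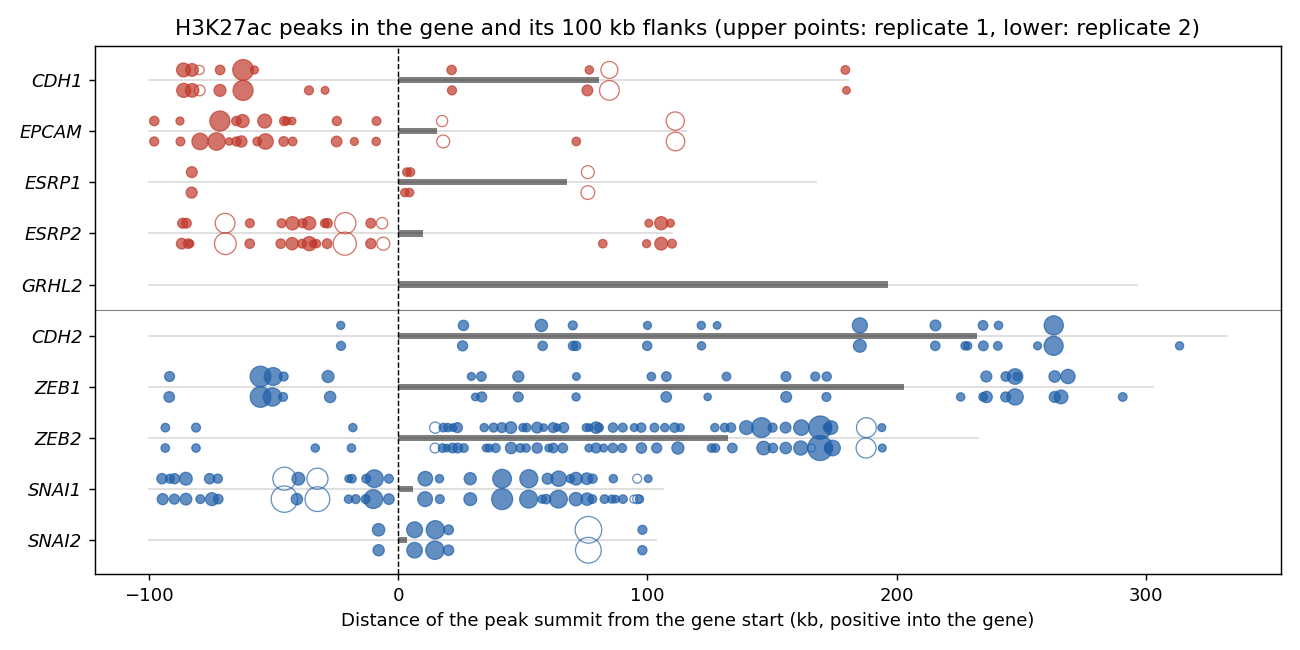
Positions of H3K27ac peak summits relative to the gene start (horizontal axis, kb) in each epithelial (red) and mesenchymal (blue) gene and its 100 kb flanks, with the gene as a dark bar, replicate 1 above it and replicate 2 below, point area growing with fold enrichment, and open circles for peaks at the start of another gene. Peaks at the gene's own start are not drawn. ZEB2 is filled with intronic peaks (27 and 25) and GRHL2 has none.

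Several strong H3K27ac peaks lay far from the starts at the same place in both replicates. Downstream of CDH2, a peak of fold enrichment 21.4 and 21.2 stood 263 kb from the start, beyond the gene end and inside no annotated gene, and it was stronger than the peak at the CDH2 start itself. Upstream of ZEB1, a peak at -55.2 kb had 25.0 and 25.2, but it lies inside ZNF438. Downstream of ZEB2, a peak at 169 kb had 31.8 and 37.0, inside the gene LOC106504203. SNAI1 had peaks of 20.4 and 25.8 at 41.7 kb, in no annotated gene, that were 13.9 and 14.2 kb wide. SNAI2 had peaks of 19.3 and 19.6 at 14.9 and 14.7 kb. Strong distal peaks were not confined to mesenchymal loci. At CDH1 a peak at -62.2 kb had 25.4 and 23.4, and it lies inside CDH3, the neighbouring gene for P-cadherin, whose own start also carried H3K27ac in both replicates. EPCAM had peaks of 23.6 at -71.5 kb in replicate 1 and 17.5 at -72.9 kb in replicate 2, in no annotated gene. Position alone does not show which gene such a peak acts on.

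By the group medians, distal H3K4me3 was less dense than distal H3K27ac in both groups. Its median density was 0.747 and 1.07 per 100 kb at the epithelial genes, 1.96 and 2.46 at the mesenchymal genes, and 1.27 and 1.41 at protein-coding genes. The difference of the medians was 1.30 ± 0.119 (SD, n = 2 replicates), which again does not cover the spread among the genes. The groups overlapped, since EPCAM (2.79 in both replicates) lay above CDH2, ZEB1, ZEB2 and SNAI2 in both replicates and below SNAI1 alone.

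**Figure D5:**
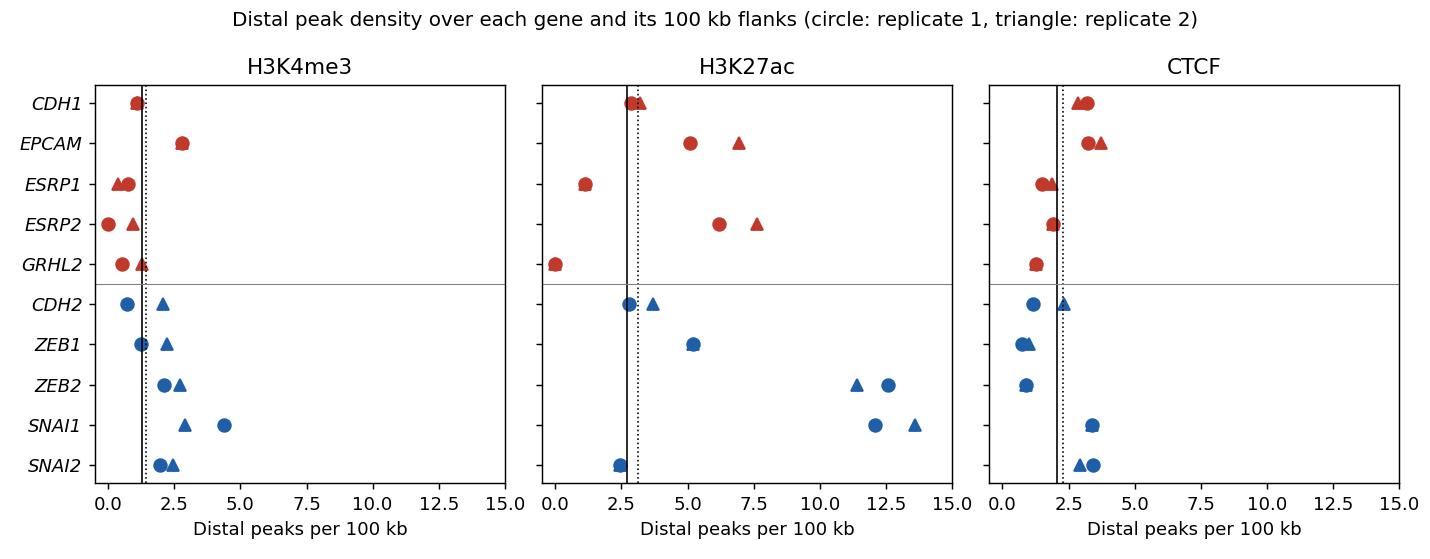
Distal peaks per 100 kb of the gene and its flanks (horizontal axis) for each epithelial (red) and mesenchymal (blue) gene in replicate 1 (circle) and replicate 2 (triangle), with vertical lines at the medians of all protein-coding genes (solid for replicate 1, dotted for replicate 2). ZEB2 and SNAI1 stand apart for H3K27ac, at 11.4 to 13.6, whereas the groups overlap for CTCF.

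CTCF at the starts was found at ZEB1, with a fold enrichment of 13.6 and 13.0, at ZEB2, with 14.6 and 20.1, and at SNAI1, with 22.6 and 31.3. These values lay between the 40.2 and 76.8 percentiles of protein-coding genes with such a peak. Distal CTCF density did not separate the groups. It had medians of 1.90 in both replicates at the epithelial genes and of 1.16 and 2.31 at the mesenchymal genes, and the difference was -0.17 ± 0.818 (SD, n = 2), with opposite signs in replicates 1 and 2 (-0.75 and 0.41). Strong CTCF peaks lay within 2 epithelial genes that lacked H3K27ac at their start. A peak 143 kb into GRHL2, in an intron, had a fold enrichment of 72.9 and 52.0, and one in an intron of CDH1, 50.5 and 50.4 kb from the start, had 42.5 and 57.5.

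The paralogs SNAI1 and SNAI2 each had a strong CTCF peak at a similar distance upstream of the start. Its summit lay at -3.91 and -3.94 kb from SNAI1, with a fold enrichment of 36.7 and 55.8, and at -3.79 and -3.77 kb from SNAI2, with 53.7 and 64.0. In both, a match to the 12-base core of the CTCF motif lay within 100 bp of the summit on the strand of the gene. These sites are printed below with 10 bases on either side and the core in capitals, together with the site 30.8 kb upstream of CDH1, where the fold enrichment was 40.9 and 48.3 and the core also ran in the direction of the gene.
SNAI1 CTCF site, chr17:51542474-51542505, plus strand: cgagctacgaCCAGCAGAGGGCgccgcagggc
SNAI2 CTCF site, chr4:79261033-79261064, plus strand: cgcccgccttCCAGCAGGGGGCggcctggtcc
CDH1 CTCF site, chr6:18186809-18186840, minus strand: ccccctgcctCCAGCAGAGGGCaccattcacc

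The core of the CTCF motif matched in this strict form at 8 of 32 CTCF peaks of the epithelial loci in replicate 1 and 8 of 34 in replicate 2, and at 6 of 28 and 6 of 34 of the mesenchymal loci. Over all CTCF peaks it matched at 19.6% and 18.2%, so neither group stood far from the background. The CTCF peaks at the starts of ZEB1, ZEB2 and SNAI1 held no match, nor did the strong intronic peaks of GRHL2 and CDH1, which says only that the strict core is not within 100 bp of those summits. At SNAI2 another core, on the opposite strand, lay under the peak at -15.4 kb with a fold enrichment of 51.9 and 53.2. The ESRP2 peak at -2.07 and -2.06 kb (31.5 and 35.5) held a core on the opposite strand.

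Other genes of the transition, 16 epithelial and 16 mesenchymal, were taken from general knowledge of the pathway. They were chosen with earlier results of these data known, so their counts are a description and not independent support for the contrast of the 10 genes. Of the epithelial genes, 14 had H3K4me3 in both replicates and 6 had H3K27ac, with H3K4me3 fold medians of 29.4 and 13.9. Of the mesenchymal genes, 15 had H3K4me3 and 14 had H3K27ac, with H3K4me3 fold medians of 50.9 and 28.9. The shares over all protein-coding genes were 68.9% for H3K4me3 and 60.7% for H3K27ac. The state of H3K4me3 without H3K27ac in either replicate was found at 6 of 16 epithelial genes and 1 of 16 mesenchymal genes, beside the 8.25% of protein-coding genes. The 6 were the tight junction genes CLDN3 and OCLN, the transcription factors OVOL2, GRHL1 and GRHL3, and the membrane protease ST14. GRHL1 had an H3K4me3 fold enrichment of 34.7 and 13.8, whereas GRHL3, with 6.56 and 3.89, resembled GRHL2. The 6 with H3K27ac were CDH3, CLDN4, CLDN7, ELF3, CRB3 and KDF1. CRB3, a polarity gene, had H3K27ac of 2.72 and 13.3, which differed by more than any other of these between the replicates, and CLDN4 had 9.71 and 10.7. RAB25 had no peak of any kind at its start.

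Among the mesenchymal genes, VIM, which encodes the intermediate filament vimentin, had H3K27ac of 46.6 and 41.2. CDH11, the cadherin of osteoblasts and fibroblasts, had 32.8 and 39.2, far above CDH2. FN1, for fibronectin, had H3K27ac of 30.5 and 7.46 but H3K4me3 of only 3.13 and 5.38. SNAI3, the third SNAI paralog, departed from SNAI1 and SNAI2. Its H3K4me3 was 5.0 and 4.5 and it had no H3K27ac, but a CTCF peak of 11.6 and 13.7. MBNL1 had no peak within 1 kb of the start of its gene model. Of the 6 microRNAs that repress ZEB, MIR429 and MIR205 were found by symbol. Neither had a peak of H3K4me3, H3K27ac or CTCF within 1 kb of the 5′ end of its gene model. That end need not be the promoter of the primary transcript, which was not examined.

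The labelled cell type was checked with marker genes. All 8 fibroblast markers, among them COL1A1, COL1A2, PDGFRA and THY1, had H3K4me3 and H3K27ac at their starts in both replicates. Each mark is common, with H3K4me3 at 68.9% and H3K27ac at 60.7% of protein-coding genes. Of 8 markers of other cell types found by symbol, which include CDH1 and EPCAM themselves, none had H3K27ac. Of the other 6, KRT5 (keratinocytes), PTPRC (blood), PECAM1 and CDH5 (endothelium) and SOX10 (neural crest) had no peak, and MYOD1 (muscle) had H3K4me3 and CTCF. Between 37932 and 81164 peaks were called per library. Read counts per peak are not in the lists, so the number of reads under a peak is unknown and no counting interval was given.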

How the data were processed

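ChIP-seq reads of 6 libraries were mapped by the authors with bowtie2, filtered for uniquely mapped pairs and for duplicates with Picard, and peaks were called with MACS2 in each library separately. Each deposited peak has its fold enrichment over the control (a linear ratio), the −log10 of its p-value and of its q-value, and a whole-number score that was not used. A q-value threshold of 0.01 is stated in the methods, but between 0.0560% and 3.06% of the deposited peaks per library lie above it. The lists were used whole. Input libraries and IDR-merged peaks were not analysed here. Positions fit Sscrofa11.1, the build that the processing notes name, and genes and sequences were taken from its RefSeq annotation, with chromosomes 1 to 18 and X.

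Peaks, distances and motifs were computed with Python 3, numpy and pandas. The start is the 5′ end of the gene model. Percentiles are shares of protein-coding genes at or below a value. No test was run, since the groups are named genes and each mark has 2 replicates. The start and density rules were tested on simulated peaks. Members and gene lists were chosen with earlier results of these data known. The text names all 10 members and, by rule, at most 4 examples with values from each longer list. Genes without H3K27ac or without any peak, genes that hold a distal peak, and the distal peaks described were named after their values were seen. The alternatives required a −log10 q-value of 2 or 5, or used single replicates, a peak in either replicate, a partner overlapping at least 50% of both peaks, 5 kb around starts, any transcript start, peak summits, 50 kb flanks, all peaks, and means over genes. One gene of the longer epithelial list and 1 promoter sequence are not reported here.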

Additional observations from a re-analysis of the deposited data

How the results depend on the processing

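Of 54 alternative counts of genes with a peak at the start, 48 stayed within 1.5 times the reported count. When the peak summit had to lie within 1 kb, 2 mesenchymal genes had H3K4me3 and 1 had H3K27ac, beside 4 and 1 epithelial genes, since the summits of the broad domains of CDH2, ZEB1 and SNAI1, and of ZEB2 for H3K27ac, lie more than 1 kb from the start in at least 1 replicate. Within 5 kb of the start, 2 epithelial genes had H3K27ac (ESRP1 besides ESRP2) and 2 had CTCF (ESRP1 and ESRP2). With a peak in either replicate, 1 epithelial gene had CTCF (ESRP2), and leaving out 1 replicate gave 0 to 1. Of 18 alternative density differences that kept both replicates, 7 moved by less than the SD of the replicates and 11 by more. The H3K4me3 difference was 1.06 with a −log10 q-value of at least 5, 0.867 with a partner over 50% of both peaks, 1.87 with 50 kb flanks, 0.986 with all peaks and 1.12 as a mean over genes, and the H3K27ac difference was 1.28, 1.83, 3.41, 1.72 and 3.74 in the same order. The CTCF difference was -1.1 with all peaks and ranged from -0.75 to 0.409 when 1 replicate was left out, with a positive sign without replicate 1. The causes of the moved densities were not tested. No replicate block was fitted, since no test was run and each density difference was taken within a replicate.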
